A study of Mus musculus with 5 samples.

Results

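The stretch described here is 400 kb of the mouse chromosome 17 tiling array, from 13.15 to 13.55 Mb in the probe positions of the deposited files. It held 2194 of the array's 388000 probes, and 76 of its 15383 windows of 5 kb with at least 8 probes. It was selected on the measured log2 cDNA over input values of the same arrays, because MEFB polyA RNA read higher there than MEFF polyA RNA, with a bright window at 13.535 Mb. That difference is given throughout as values and without a test. Windows are named by their start in file positions. The study hybridised double-stranded cDNA in Cy3 against sonicated genomic DNA of the same line (the input) in Cy5, on 1 array of MEFB polyA RNA, 2 arrays of MEFF total RNA and 2 arrays of MEFF polyA RNA. MEFB and MEFF are lines of mouse embryo fibroblasts that immortalised spontaneously, from FVBN embryos at 12.5 days after conception, and neither received a treatment that the labels name. Both carry Thp, a deletion of at least 4.6 Mb between T and Sod2 that removes the imprinted Igf2r cluster. MEFF has the genotype Thp/+ and MEFB the reciprocal +/Thp, so the deletion lies on opposite parental copies and every sample has it on 1 copy. Each genotype is represented by 1 line, so genotype and line cannot be told apart, and the labels do not say whether the arrays of a group came from separate cultures. Of the probes, 387986 lie on chromosome 17 and 14 elsewhere, and the usual fibroblast markers on other chromosomes were not checked.

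A level below is log2(cDNA/input) of a probe, or its mean over a window, minus the median of all probes of that array, so 0 is the middle of the array. Double-stranded cDNA keeps no strand. Both strands were therefore read together. The arrays differed in range: the 99th percentile of the cDNA intensity was 20.7 times the array's median in MEFB, 5.42 and 5.33 times in the MEFF total arrays, and 9.17 and 22.4 times in the MEFF polyA arrays. A level over 1 was reached by 10.3% of all probes in MEFB, by 3.39% and 3.42% in MEFF total RNA, and by 4.05% and 8.65% in MEFF polyA RNA. Over all windows of the array, the level correlated between the 2 MEFF polyA arrays with r = 0.952, and between MEFB and each of them with r = 0.876 and 0.86, as a description across windows of shared probes.

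The files do not state the genome build of their positions, and those positions are not coordinates of NCBIM37 (the same assembly as mm9). The stretch was therefore placed on NCBIM37 by the spacing of its probes, which skip repeats, with no cDNA value used. The probes fell at chr17:14422036-14818189 of that build, between 1.268 and 1.272 Mb beyond the numbers in the files. Of the 17 blocks of 50 kb that touch the stretch, 9 were placed on their own and 3 were not accepted. The other 5 were accepted because their best local shift came within 3000 bases of that of a nearest block placed on its own. Acceptance did not set the position of a probe: every probe took its shift from a best path of 16 segments along the stretch. No accepted block covers 161 of the 2194 probes, among them 14 of the 18 Smoc2 exon probes and 0 of the 29 Thbs2 exon probes. The assignment of those 14 to Smoc2 exons therefore rests on that path alone. The other Smoc2 exon probes, in exons 2, 4 and 8, lie only in blocks that were not placed on their own. The input signal, which follows base composition, correlated with the GC content at the placed positions with r = 0.186 over 2194 probes, and with r = -0.039 at the file positions. Over 80 other shifts the same value lay between -0.055 and 0.051. However, the offset of the 50 bases of a probe was chosen to make this correlation highest at the placed positions. Other shifts kept that offset, so the comparison favoured the placed positions, by an amount that was not tested. Because it pools all 2194 probes, it does not check the 161 uncovered ones by themselves. At the placed position the stretch starts 1.21 Mb past the end of Sod2 and 1.22 Mb past the end that the labels give for Thp.

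GENCODE vM1 annotates 2 genes there, both protein-coding. Smoc2 (chr17:14416513-14541797, plus strand, 13 exons) fills the start of the stretch except for its first exon, and Thbs2 (chr17:14802507-14831269, minus strand, 22 exons) begins at the end of the stretch with its 3′ part and runs on past it. The 260.7 kb between them hold no gene of that annotation, while RefSeq on GRCm38 lists the long non-coding RNAs Gm38551 and Gm34916 between them and 4930474M22Rik inside Smoc2. Both proteins are secreted and belong to the matricellular class, which signals to cells from the extracellular matrix without forming its scaffold. SMOC2 is a calcium-binding protein of the SPARC family that modulates growth factor signalling. Thrombospondin-2, the product of Thbs2, is made by fibroblasts, takes part in collagen fibril assembly and inhibits the growth of blood vessels.

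The coding exons that read highest in MEFB are shown for each gene, because exon probes held the largest differences between the lines. Capitals mark the bases covered by array probes at their placed position, and the rest is in lower case. That position may be off by some bases. For Smoc2 exon 10 it may be off by more, because its probe lies in no accepted block. The same may hold for Smoc2 exon 8, whose probes lie in no block placed on its own. Smoc2 exon 8 has 2 probes, and Smoc2 exon 10, Thbs2 exon 19 and Thbs2 exon 21 have 1 each. The sequences are those of the longest GENCODE vM1 transcript of each gene on NCBIM37, each 5′ to 3′ on the strand of its gene.
Smoc2 exon 8 (chr17:14505915-14506101, plus strand): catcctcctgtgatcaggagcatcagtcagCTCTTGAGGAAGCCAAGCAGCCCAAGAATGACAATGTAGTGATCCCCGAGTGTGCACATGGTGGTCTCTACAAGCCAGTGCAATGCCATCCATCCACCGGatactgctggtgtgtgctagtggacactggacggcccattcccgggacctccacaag
Smoc2 exon 10 (chr17:14534528-14534630, plus strand): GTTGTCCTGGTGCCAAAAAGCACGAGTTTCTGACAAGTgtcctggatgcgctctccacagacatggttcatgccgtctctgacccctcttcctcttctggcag
Thbs2 exon 19 (chr17:14807601-14807872, minus strand): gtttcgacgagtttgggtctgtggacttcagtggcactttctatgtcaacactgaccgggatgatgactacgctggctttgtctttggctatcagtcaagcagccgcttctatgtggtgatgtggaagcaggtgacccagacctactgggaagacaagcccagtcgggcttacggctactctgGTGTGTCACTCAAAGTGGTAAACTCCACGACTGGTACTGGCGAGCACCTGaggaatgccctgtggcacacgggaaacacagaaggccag
Thbs2 exon 21 (chr17:14805732-14805871, minus strand): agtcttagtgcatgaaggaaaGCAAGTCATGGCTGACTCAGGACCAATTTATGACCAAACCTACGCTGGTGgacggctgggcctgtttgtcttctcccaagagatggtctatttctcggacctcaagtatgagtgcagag
Smoc2 exon 8 had a level of 5.64 in MEFB, -0.09 and 0.00 in MEFF total RNA, and -0.01 and -0.02 in MEFF polyA RNA. Smoc2 exon 10 had 5.93 in MEFB, 0.17 and 0.10 in MEFF total RNA, and 0.03 and -0.68 in MEFF polyA RNA. In these exons of Smoc2 the MEFB array stood alone. The MEFF arrays lay near the middle of their own range, except MEFF polyA replicate 2, which was lower on exon 10. Thbs2 exon 19 had 6.62 in MEFB, 1.15 and 0.51 in MEFF total RNA, and 2.33 and 3.55 in MEFF polyA RNA. Thbs2 exon 21 had 6.41 in MEFB, 0.64 and 0.28 in MEFF total RNA, and 1.99 and 2.75 in MEFF polyA RNA. Here the 3 groups did not overlap and stood in the order MEFB polyA, MEFF polyA, MEFF total RNA. Of all single probes of the array, 27.9% had MEFB above all 4 MEFF arrays. On 22.1%, both MEFF total arrays were below both MEFF polyA arrays.

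The bright window at 13.535 Mb was placed on the 3′ end of Thbs2. Its level was 2.57 in MEFB, 0.04 and -0.12 in MEFF total RNA, and 0.38 and 0.59 in MEFF polyA RNA. MEFB exceeded the mean of the MEFF polyA arrays by 2.09, against an SD of 0.15 between those 2 arrays. The window ranked 81st from the top of 15383 windows in MEFB, 5032nd and 8468th in the MEFF total arrays, and 1631st and 1966th in the MEFF polyA arrays. Of its 41 probes, 15 covered an exon and 26 did not. The 15 exon probes averaged 5.94 in MEFB, 0.57 and 0.30 in MEFF total RNA, and 1.45 and 2.08 in MEFF polyA RNA. The 26 others averaged 0.64 in MEFB, -0.27 and -0.36 in MEFF total RNA, and -0.23 and -0.27 in MEFF polyA RNA. The window mean thus joined a minority of very bright exon probes to a majority in introns or near exon edges. On average, MEFB also read that majority above MEFF.

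All 10 of the brightest probes of that window in MEFB fell in exons, at levels of 5.78 to 6.75. The same 10 probes lay between -0.21 and 1.15 and between -0.46 and 0.53 in the MEFF total arrays, and between 0.61 and 2.33 and between 1.38 and 3.55 in the MEFF polyA arrays. Before any ratio was taken, their cDNA intensity ran from 32286 to 65144 in MEFB, from 3167 to 7023 and from 2475 to 7652 in MEFF total RNA, and from 3012 to 9335 and from 1447 to 6840 in MEFF polyA RNA. The median cDNA intensity of the whole array was 747 in MEFB, 2561 and 2542 in MEFF total RNA, and 1568 and 569 in MEFF polyA RNA. No member probe reached the scanner limit, and 6 exceeded an intensity of 60000 in MEFB, close to that limit.

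**Figure D1:**
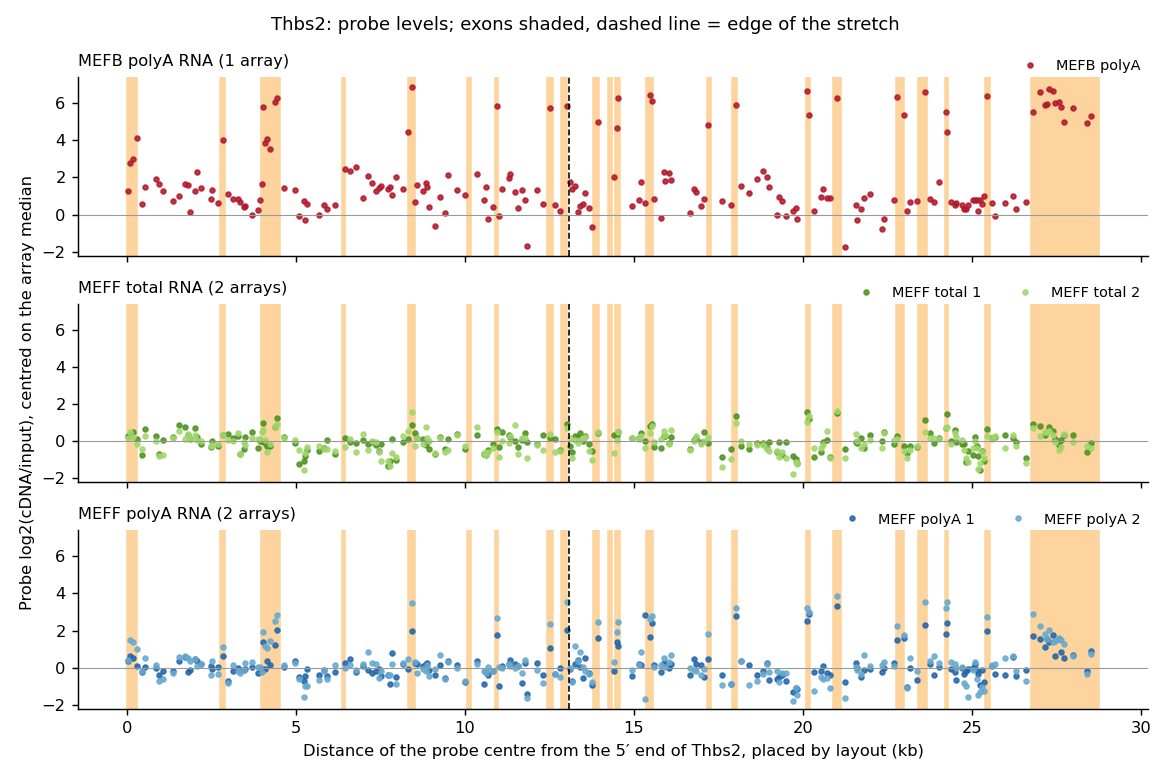
Level of each probe, log2(cDNA/input) centred on the array median, against its distance from the 5′ end of Thbs2 in kb, with exons shaded and a dashed line at the edge of the stretch, which holds the part to the right of it. Exon probes stand at 4.47 to 6.75 in MEFB within the stretch, and the same exons stand out at lower levels in both MEFF polyA arrays.

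Over the whole part of Thbs2 inside the stretch, the 29 exon probes averaged 5.81 in MEFB, 0.56 and 0.38 in MEFF total RNA, and 1.58 and 2.17 in MEFF polyA RNA. The lowest, median and highest exon probe in MEFB stood at 4.47, 5.93 and 6.75, and every one was above all 4 MEFF arrays, as were 27.9% of all probes of the array. The highest exon probe reached 1.55 and 1.65 in MEFF total RNA and 3.32 and 3.83 in MEFF polyA RNA, below the lowest in MEFB on every array. MEFB exceeded the MEFF polyA mean by 3.93 on the exon probes, with an SD of 0.42 between the MEFF polyA arrays. The 61 intron probes averaged 0.76 in MEFB, -0.17 and -0.28 in MEFF total RNA, and -0.19 and -0.21 in MEFF polyA RNA. Of them, 52 (85.2%) were highest in MEFB, at a much smaller excess of 0.96 over the MEFF polyA mean.

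The exons of Thbs2 were read one by one, 12 of them inside the stretch and 8 past it. Inside the stretch, the exon levels in MEFB ran from 4.82 to 6.62 with a median of 5.88. They ran from -0.09 to 1.53 (median 0.75) and from -0.21 to 1.65 (median 0.51) in the MEFF total arrays, and from 0.48 to 3.32 (median 2.02) and from 1.43 to 3.83 (median 2.74) in the MEFF polyA arrays. The pattern held on past the edge of the stretch: on the 8 exons towards the 5′ end, which the rule did not use but which belong to the same transcript, MEFB ran from 2.45 to 5.84 (median 5.07, with exon 7 at the scanner limit and so a lower bound), the MEFF total medians were 0.32 and 0.36, and the MEFF polyA medians were 0.84 and 1.75. The first exon, which is untranslated, had 2.80 in MEFB, 0.31 and 0.19 in MEFF total RNA, and 0.39 and 1.07 in MEFF polyA RNA. Exon 17 was the brightest in MEFF polyA RNA, at 3.32 and 3.83, against 6.27 in MEFB and 1.53 and 1.65 in MEFF total RNA. Exon 22, which holds the 3′ untranslated region and has 13 probes, had 5.86 in MEFB, 0.30 and 0.13 in MEFF total RNA, and 1.07 and 1.43 in MEFF polyA RNA. The excess of MEFB over MEFF polyA RNA was 4.61 on exon 22 and 2.69 on exon 17. With 1 probe on most exons, probe affinity was not separated from exon use.

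**Figure D2:**
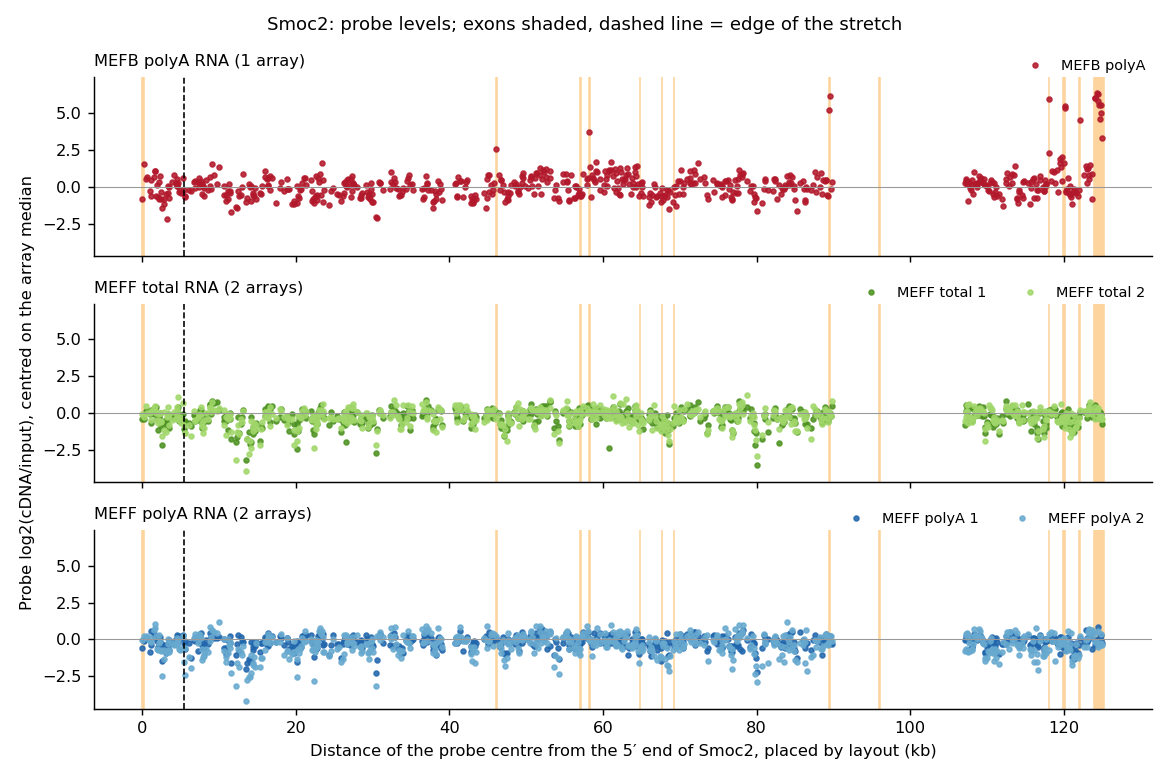
Level of each probe, log2(cDNA/input) centred on the array median, against its distance from the 5′ end of Smoc2 in kb, with exons shaded and a dashed line at the edge of the stretch, which holds the part to the right of it. MEFB probes on 7 exons stand at 1.58 to 6.35, while no MEFF array has an exon probe over 1.

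The exons of Smoc2 stood out on the MEFB array and on none of the 4 MEFF arrays. Its 18 exon probes averaged 4.94 in MEFB, -0.07 and -0.10 in MEFF total RNA, and 0.02 and -0.07 in MEFF polyA RNA. The lowest, median and highest in MEFB were 1.58, 5.38 and 6.35. All 18 were above every MEFF array, as were 27.9% of all probes of the array. The highest exon probe of any MEFF array stood at 0.82. MEFB exceeded the MEFF polyA mean by 4.97, against an SD of 0.06 between the MEFF polyA arrays. Relative to the probes between the genes, the Smoc2 exon probes stood higher by 5.23 in MEFB, by 0.20 and 0.18 in MEFF total RNA, and by 0.17 and 0.30 in MEFF polyA RNA. A level near the middle of an array does not show that the gene was silent there.

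Of the 13 exons of Smoc2, 7 had a probe inside the stretch. Exon 2 had 2.52 in MEFB, 0.09 and -0.38 in MEFF total RNA, and 0.08 and 0.26 in MEFF polyA RNA. Exon 4 had 3.67 in MEFB, 0.38 and 0.06 in MEFF total RNA, and 0.04 and -0.06 in MEFF polyA RNA. Exon 11 had 3.43 in MEFB, -0.28 and -0.59 in MEFF total RNA, and -0.27 and -0.04 in MEFF polyA RNA. Exon 13, the last, holds the 3′ untranslated region and 10 probes, and had 5.42 in MEFB, -0.12 and -0.07 in MEFF total RNA, and 0.06 and -0.09 in MEFF polyA RNA. The last exon had the most probes, and MEFB exceeded the MEFF polyA mean there by 5.43. Exon 1 lies outside the stretch and its single probe had -0.82 in MEFB, -0.43 and -0.08 in MEFF total RNA, and -0.56 and -0.04 in MEFF polyA RNA, with no excess in MEFB. The long non-coding RNA 4930474M22Rik lies inside Smoc2 in RefSeq, and signal of the 2 genes cannot be told apart where they overlap.

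The 583 intron probes of Smoc2 averaged -0.02 in MEFB, -0.30 and -0.29 in MEFF total RNA, and -0.17 and -0.35 in MEFF polyA RNA. MEFB was above all 4 MEFF arrays on 262 of them (44.9%), beside 27.9% of all probes of the array, and 6.0% exceeded a level of 1 in MEFB. The excess over the MEFF polyA mean was 0.25, with an SD of 0.13 between those arrays. Without MEFF polyA replicate 2 it was 0.155. The excess was uneven along the gene. Over the 17 gene windows of the stretch without exon probes, the difference ran from -0.16 to 0.50, with a median of 0.28. MEFB was above all 4 MEFF arrays in 11 of them (64.7%), beside 30.9% of all windows. From 13.165 to 13.185 Mb the differences were 0.13, 0.10, -0.07, 0.04 and -0.16, and at 13.215 Mb 0.05. The window at 13.21 Mb had 0.35 in MEFB, -0.16 and -0.19 in MEFF total RNA, and -0.13 and -0.16 in MEFF polyA RNA.

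**Figure D3:**
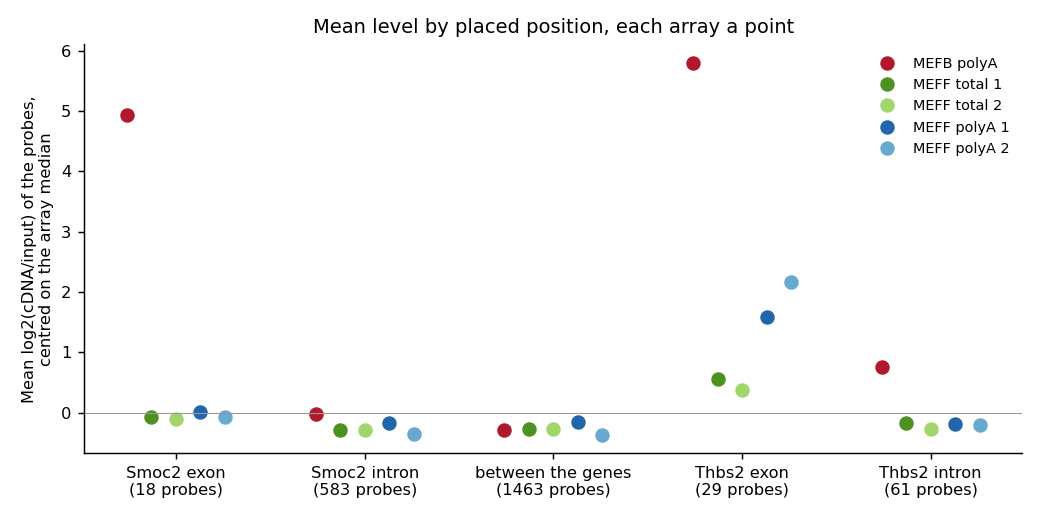
Mean level, log2(cDNA/input) centred on the array median, of the member probes in 5 classes of placed position, with 1 point for each array and no averaging over arrays. MEFB stands apart at 4.94 on Smoc2 exons and 5.81 on Thbs2 exons, and all arrays lie between -0.37 and -0.15 between the genes.

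Averaged over the probes between the genes, the lines did not stand apart. The 1463 probes there averaged -0.29 in MEFB, -0.27 and -0.28 in MEFF total RNA, and -0.15 and -0.37 in MEFF polyA RNA, so MEFB lay inside the range of the MEFF arrays. MEFB differed from the MEFF polyA mean by -0.03, less than the SD of 0.15 between those arrays. Among the 49 windows between the genes, MEFB was above all 4 MEFF arrays in 10 (20.4%), beside 30.9% of all windows, and below all 4 in 17 (34.7%), beside 27.4%. The lowest differences of the stretch were all found there. The window at 13.365 Mb had -0.60 in MEFB, -0.39 and -0.25 in MEFF total RNA, and -0.09 and -0.28 in MEFF polyA RNA. The window at 13.325 Mb had -0.58 in MEFB, -0.27 and -0.29 in MEFF total RNA, and -0.17 and -0.16 in MEFF polyA RNA. The window at 13.355 Mb had -0.69 in MEFB, -0.38 and -0.39 in MEFF total RNA, and -0.19 and -0.54 in MEFF polyA RNA. In each of these 3 windows the MEFB array was the lowest of the 5.

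Windows between the genes that ran the other way lay mostly together. Most of the 10 with MEFB above all 4 MEFF arrays were at 13.415 to 13.465 Mb. Their differences from the MEFF polyA mean included 0.26 at 13.415 Mb, 0.07 at 13.42 Mb, 0.24 at 13.44 Mb and 0.23 at 13.455 Mb. Within that run, the windows at 13.435 and 13.45 Mb were not highest in MEFB. The window at 13.46 Mb had 0.18 in MEFB, -0.42 and -0.51 in MEFF total RNA, and -0.20 and -0.50 in MEFF polyA RNA. Its neighbour at 13.465 Mb had 0.30 in MEFB, -0.10 and -0.12 in MEFF total RNA, and -0.03 and -0.11 in MEFF polyA RNA. Both windows were highest in MEFB, and neither holds an exon of GENCODE vM1. Single probes above a level of 3 were found between the genes on MEFB and on both MEFF polyA arrays. They numbered 2 in MEFB, 0 on either MEFF total array, and 3 and 1 on the MEFF polyA arrays. Their highest levels were 3.77 in MEFB and 3.83 and 4.75 in MEFF polyA RNA. These places were chosen after their values were seen.

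**Figure D4:**
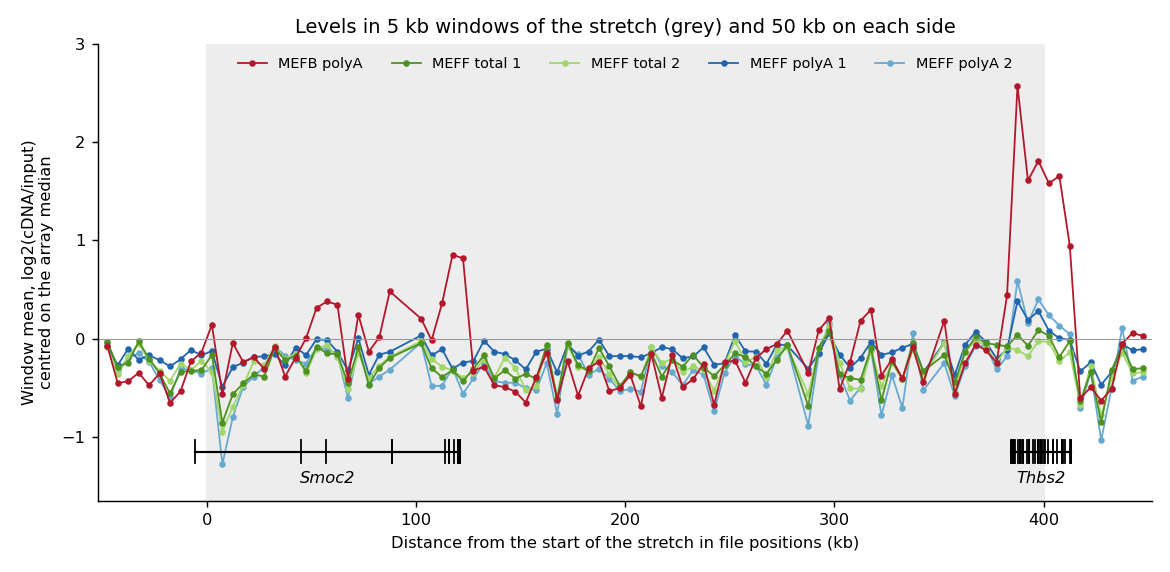
Mean level of each 5 kb window, log2(cDNA/input) centred on the array median, against its distance from the start of the stretch in kb of file position, with 1 line for each of the 5 arrays and the stretch in grey. Below, the horizontal bars are the genes as placed and the ticks are exon probes. MEFB rises above the others over the 3′ part of Smoc2 and over Thbs2, to 2.57 at its highest window.

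Taken as a whole, the stretch was only modestly higher in MEFB. The mean of its 76 windows was -0.08 in MEFB, -0.26 and -0.27 in MEFF total RNA, and -0.14 and -0.33 in MEFF polyA RNA. The difference between MEFB and MEFF polyA RNA averaged 0.15, beside an SD of 0.14 between the means of the MEFF polyA arrays. It was 0.13 without the bright window, and 0.058 without MEFF polyA replicate 2. With the bright window and that array both left out it was 0.0295. The median difference over the windows was 0.04, beside a median of 0.01 over all windows of the array. MEFB was above all 4 MEFF arrays in 30 of the 76 windows (39.5%), beside 30.9% of all windows, and below all 4 in 18 (23.7%), beside 27.4%. The 10 windows with exon probes averaged 0.91 in MEFB, -0.17 and -0.18 in MEFF total RNA, and -0.01 and -0.10 in MEFF polyA RNA, and 9 of the 10 were highest in MEFB. The exception was the window at 13.19 Mb, with 1 exon probe of 26, at -0.19 in MEFB, -0.17 and -0.15 in MEFF total RNA, and -0.09 and -0.22 in MEFF polyA RNA.

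The windows with the largest differences all touch the genes. After the bright window came those at 13.545, 13.54, 13.27 and 13.265 Mb, with differences between MEFB and MEFF polyA RNA of 1.47, 1.44, 1.22 and 1.16. The first 2 lie in Thbs2. The window at 13.27 Mb holds the last exon of Smoc2 and had 0.82 in MEFB, -0.43 and -0.40 in MEFF total RNA, and -0.24 and -0.56 in MEFF polyA RNA. The window at 13.265 Mb had 0.85 in MEFB, -0.32 and -0.32 in MEFF total RNA, and -0.31 and -0.30 in MEFF polyA RNA. At the edges of the stretch, the window just inside its start (13.15 Mb) differed by 0.36 and the one just outside (13.145 Mb) by 0.12. The window just inside its end (13.545 Mb) differed by 1.47 and the one just outside (13.55 Mb) by 1.42, so the end of the stretch cuts through Thbs2.

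In front of the bright window, MEFB did not stand apart at 13.515, 13.52 and 13.525 Mb but was highest at 13.53 Mb. The windows at 13.515, 13.52 and 13.525 Mb stood at -0.06, -0.12 and -0.24 in MEFB, and differed from the MEFF polyA mean by -0.06, -0.06 and 0.01. The window at 13.53 Mb, with the last 2 exon probes of Thbs2, had 0.44 in MEFB, -0.08 and -0.09 in MEFF total RNA, and -0.11 and -0.18 in MEFF polyA RNA. Behind the bright window, the windows at 13.54, 13.545, 13.55 and 13.555 Mb stood at 1.61, 1.81, 1.58 and 1.66 in MEFB, and differed from the MEFF polyA mean by 1.44, 1.47, 1.42 and 1.59.

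The difference between total and polyA RNA of MEFF was not the measure that chose the stretch, but the same MEFF arrays entered that choice, so its p-values are not independent of it. Thbs2 exons read lower in total RNA than in polyA RNA, while the differences on Smoc2 exons and between the genes were smaller than the SD between the polyA arrays. On the 29 Thbs2 exon probes, MEFF total RNA averaged 0.47 ± 0.13 and MEFF polyA RNA 1.88 ± 0.42 (SD, n = 2 each), a difference of -1.41. Both total arrays were below both polyA arrays on 28 of the 29 probes (96.6%), beside 22.1% of all probes of the array, and in all 12 exons inside the stretch. Past the stretch the same held in 6 of 8 exons. On the 18 Smoc2 exon probes the difference was -0.06, with both total arrays below both polyA arrays on 3 (16.7%). On the 61 Thbs2 intron probes it was -0.02, with 10 (16.4%). The total arrays had the narrower range of cDNA intensity given above, and its part in the Thbs2 difference was not tested.

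In windows, limma's moderated test over all 15383 windows with Benjamini-Hochberg adjustment called 0 of the 76 windows of the stretch at an adjusted p of 0.05, and 0.0% of all windows. At an unadjusted p of 0.05 it called 3 of the 76 (3.95%), beside 7.73% of all windows, so the stretch had fewer such windows than the array. Those 3 were the bright window and its neighbours at 13.54 and 13.545 Mb, all in Thbs2 and all lower in total RNA. The bright window differed by -0.52 with a standard error of 0.11 (limma adjusted p = 0.572), the window at 13.545 Mb by -0.31 and the window at 13.54 Mb by -0.30. Both total arrays were below both polyA arrays in 7 of the 76 windows (9.21%), beside 20.9% of all windows, and above both in 3 (3.95%), beside 14.2%. The call at the bright window depended on the scaling: its adjusted p was 0.0221 after quantile normalization between arrays, which called 1 window of the stretch beside 6.04% of all windows, and 0.0582 after normexp background correction, which called 0 of the 76 beside 3.39%. Without MEFF polyA replicate 1 the limma fit called 10 of the 76 windows beside 29.2% of all windows, 7 higher (11.9% of all) and 3 lower (17.3% of all) in total RNA. Without replicate 2 it called 19 beside 20.8%, 0 higher (4.54% of all) and 19 lower (16.2% of all). The bright window was lower and called in both cases. The largest differences the other way were small, at 0.11, 0.10 and 0.08 for the windows at 13.31, 13.525 and 13.49 Mb. Averaged over the stretch the difference was -0.03, and with 2 arrays against 2 an exact permutation test could not pass the threshold.

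The input channel, the denominator of every level, differed little between the lines. Centred on its array median, the log2 input signal of the stretch averaged 0.15 in MEFB, 0.20 and 0.22 on the MEFF total arrays, and 0.11 and 0.18 on the MEFF polyA arrays. The difference of -0.03 between MEFB and the MEFF mean was smaller than the SD of 0.05 among the 4 MEFF arrays. The exon differences were in the cDNA channel. On Smoc2 exons the centred log2 cDNA signal alone was 4.96 in MEFB, -0.02 and -0.05 in MEFF total RNA, and -0.01 and -0.05 in MEFF polyA RNA. On Thbs2 exons it was 5.96 in MEFB, 0.90 and 0.81 in MEFF total RNA, and 1.72 and 2.70 in MEFF polyA RNA. The input on the same Thbs2 exons was 0.01 in MEFB, 0.29 and 0.38 on the MEFF total arrays, and 0.11 and 0.38 on the MEFF polyA arrays, a difference of -0.23 between MEFB and MEFF polyA.

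The 400 kb on either side of the stretch, taken in file positions, gave smaller means. The 55 windows before it differed between MEFB and MEFF polyA RNA by -0.05 and the 71 windows after it, which include the 5′ part of Thbs2, by 0.08. The level correlated over the 76 windows of the stretch with r = 0.659 and 0.641 between MEFB and the MEFF polyA arrays, and with r = 0.828 between the MEFF polyA arrays, as a description over windows that share their probes.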

How the data were processed

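Cells, RNA and groups are as described above, with 1 MEFB polyA, 2 MEFF total and 2 MEFF polyA arrays. Each deposited file holds the raw intensity of every probe in 1 channel, written by NimbleScan 2.2.34 according to its header, per the file headers. Which build the positions follow is not given in the sources used. The intensity of each probe was turned into log2(cDNA/input), centred on the array median and averaged over windows of 5000 bases with at least 8 probes. Groups were taken from the labels, and replicates were numbered in accession order. MEFF total and MEFF polyA RNA were set against each other by limma 3.58.1 under R 4.3.3 (lmFit and eBayes, 5 arrays, 3 group means, 2 residual degrees of freedom, Benjamini-Hochberg over all windows). The fit was also run on simulated windows with the same noise on every array. That run does not cover the unlike ranges of the MEFF polyA arrays. The p-values of the fit rest on the spread within the 2 pairs of MEFF arrays, which may be technical, and this small number limits the precision. MEFB against MEFF was not tested.

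Probes were placed on NCBIM37 with Python 3 scripts by comparing their layout with counts of 13-base words in the reference. The method was also run on blocks simulated from its own layout model with a constant shift. That run does not cover shifts that change within a block. A probe was an exon probe with 25 of its 50 bases in a GENCODE vM1 exon and an intron probe at 100 bases or more from any exon. Probes at exon edges are counted only in the totals. Windows named by rule are the bright window with 4 on each side and the 5 largest and 3 smallest MEFB minus MEFF polyA differences. The rule also took the 3 largest and 3 smallest MEFF total minus MEFF polyA differences. Other windows, at the edges of the stretch, in Smoc2 and between the genes, were named outside that rule. Also described were the 10 brightest probes of the bright window and all protein-coding genes. Members, lists and rules were chosen with earlier results of these data known. Alternatives were normexp with offset 50, loess with span 0.3, quantile normalization, the cDNA channel alone, medians of probes and windows of 2000 bases. Others left out every probe among the dimmest 10% of input on any array, or each MEFF array in turn. A trended prior and a fit of the MEFF arrays alone were also used.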

Additional observations from a re-analysis of the deposited data

How the results depend on the processing

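MEFB polyA exceeded MEFF polyA RNA on the exon probes of both genes under all 10 alternatives, by 3.81 to 6.32 on Smoc2 and by 2.05 to 4.22 on Thbs2; these alternatives were chosen after seeing the data. On Smoc2 exons the difference was 6.32 after normexp, 3.81 after loess, 4.01 after quantile normalization, 5.44 with medians of probes, and 4.5 and 4.4 with the placing moved by 25 bases up and down. On Thbs2 exons it was 2.05 after loess and 3.13 after quantile normalization, and the MEFF total minus MEFF polyA difference there stayed negative under all 12 alternatives, with -0.97 after loess. The bright window differed between MEFB and MEFF polyA by 2.58 after normexp, 1.56 after loess, 1.69 after quantile normalization and 0.626 with medians of probes, since 26 of its 41 probes cover no exon. The stretch mean of that difference was 0.382 after normexp, and 0.353 there without the bright window. With medians of probes it was 0.0428, and 0.035 without the bright window. It ranged from 0.058 to 0.249 with each MEFF array left out. The input difference between MEFB and MEFF was 0.0434 with medians of probes.

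Between MEFF total and MEFF polyA RNA, the stretch mean was -0.184 after normexp, where the median of all windows was -0.103, and between -0.13 and 0.0611 with each array left out, without a settled sign. The bright window passed the threshold after quantile normalization (-0.394, limma adjusted p = 0.0221) and with either MEFF polyA array left out, and its difference lay between -0.627 and -0.42 over the left-out arrays. Calls over all windows numbered 521 after normexp and 929 after quantile normalization, and 0 to 4485 with each array left out. In the stretch they numbered 1 after quantile normalization and 0 to 19 with each array left out. A fit without 1 MEFF polyA array assumes that the lone one varies like the MEFF total arrays, which alone then supply the spread. No paired analysis was possible because the replicate numbers were given in accession order and the labels pair no arrays.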
